A study of Mus musculus with 10 samples.

Results

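The 6 genes described here encode the cardiac natriuretic peptides Nppa and Nppb, the receptors Npr1, Npr2 and Npr3, and Corin, the protease that matures the Nppa product. They were taken by name from a deposited table of 49585 rows, and all 6 were among the 12906 rows with enough reads to be tested. RNA was taken from left ventricles of male mice of the outbred ICR stock, 4 weeks after myocardial infarction had been induced. The mice compared were treated with 4FM3 (5 libraries, label MI+4FM3) or given PBS, taken here as phosphate-buffered saline (5 libraries, label MI+PBS), so every heart in both groups was infarcted and none was uninjured. The series title names delivery by adeno-associated virus, a gene delivery vector. The sources used here do not give what 4FM3 stands for, the age of the animals or what an 8-week time label counts from, and no group is labelled as given an empty vector. The libraries are numbered 1 to 5 in each group, and the labels do not say whether each is its own animal, so the p-values cover library-to-library spread, which may be technical.

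Atrial natriuretic peptide (ANP, from Nppa) and B-type natriuretic peptide (BNP, from Nppb) are hormones that heart muscle releases under stretch and load. They promote salt excretion and relax vessels. Nppa is abundant in the fetal ventricle, is largely restricted to the atria after birth, and returns in stressed or failing ventricular muscle, where Nppb is the classical clinical marker. Both peptides act through Npr1, a receptor that makes the second messenger cyclic GMP, while Npr2 is the corresponding receptor for C-type natriuretic peptide and Npr3 removes the peptides from circulation.

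Nppa RNA was lower in 4FM3 ventricles than in PBS ventricles, and the neighbouring gene Nppb did not follow it by the same amount. Nppa was 2.74-fold lower in 4FM3, whereas Nppb, the 3 receptor genes and Corin did not pass the test. Of the 6 genes 1 was called lower and none higher, against 43.0% of all tested genes called in either direction (22.1% lower and 20.9% higher) by the edgeR quasi-likelihood test at an adjusted p under 0.05. The median log2 fold change of the 6 was -0.15, against -0.03 over all tested genes. With library size alone as scaling, which moved the median of all genes to -0.20, 1540 of all tested genes were called higher and 4967 lower, against 2700 higher and 2846 lower with the scaling used. Levels are given as CPM, the reads of a gene set against a library size scaled by the TMM method. In the plot of each gene by library, Nppa is the gene whose groups stand apart.

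**Figure D1:**
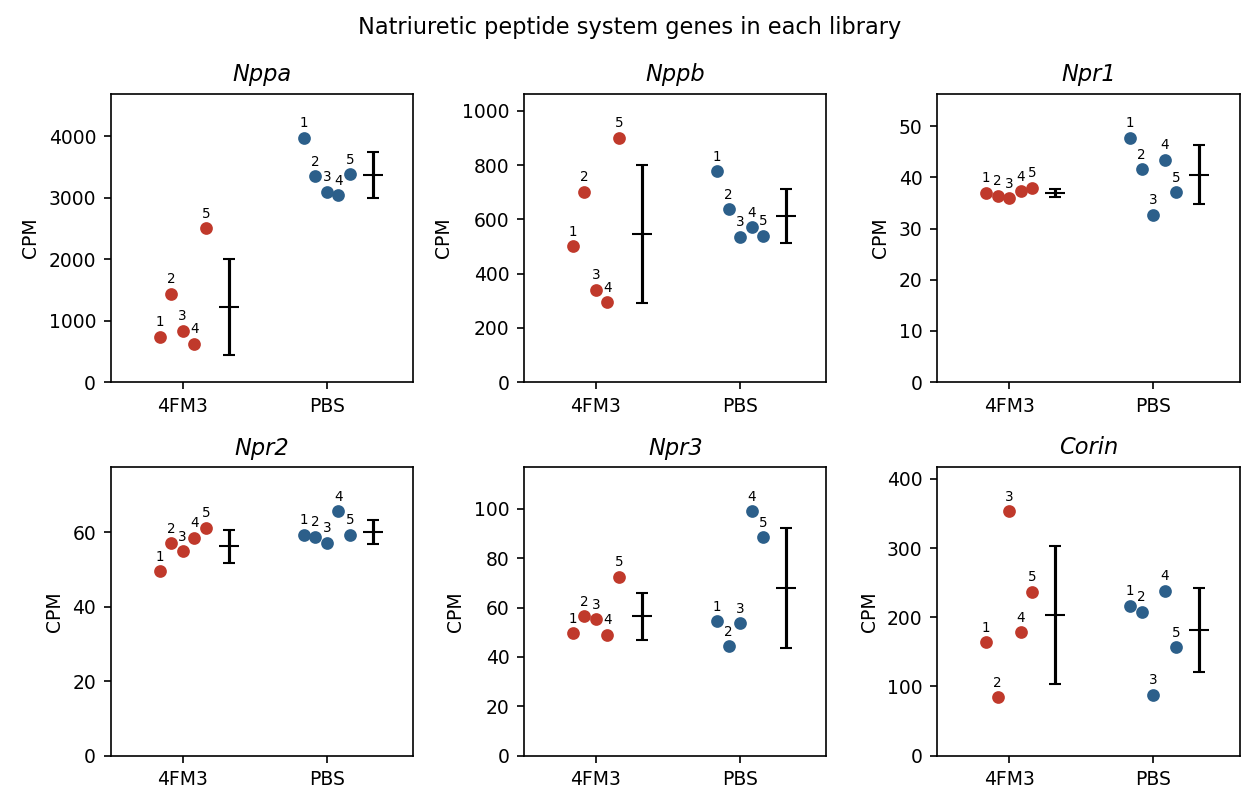
Level of each of the 6 genes in every library, in CPM on scaled library sizes; points are libraries with their replicate numbers, and the black bar is the mean ± SD of 5 libraries. All 4FM3 values of Nppa (623 to 2507) lie below all PBS values (3043 to 3979.7), while the groups overlap for the other 5 genes.

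Nppa (chromosome 4, 148000722 to 148002079, plus strand, mm10) had 738, 1442, 836, 623 and 2507 CPM in 4FM3 libraries 1 to 5, against 3979.7, 3350.4, 3096, 3043 and 3383 CPM in PBS libraries 1 to 5. The groups did not overlap, which was the case for 27.5% of all tested genes in either direction and for 13.4% lower and 14.1% higher in 4FM3. Within 4FM3, libraries 2 and 5 were the highest and library 4 the lowest. The mean was 1229 ± 781 CPM in 4FM3 and 3370.4 ± 372 CPM in PBS (SD, n = 5 each), so the coefficient of variation was 63.6% in 4FM3 and 11.04% in PBS. The fitted log2 fold change was -1.46 (SE 0.354, 95% interval -2.24 to -0.67, edgeR adjusted p = 0.0083), a change to 0.365 of the PBS level with an interval of 0.212 to 0.629. These values rest on 4037 to 17346 reads per library in 4FM3 and 24033 to 30568 in PBS. In bulk tissue, fewer cells of a type and less RNA per cell cannot be told apart.

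Leaving out any single library kept the sign and the call for Nppa. Without 4FM3 library 5, the highest of its group, the log2 fold change was -1.89 (edgeR adjusted p = 0.00017), and without 4FM3 library 4, the lowest, it was -1.29 (adjusted p = 0.0146). PBS libraries 2 and 3 carried lung transcripts, with 4569 and 4030 counts of the surfactant gene Sftpc against 0 in the other 3 PBS libraries and 0 to 84 in 4FM3. Their Nppa values, 3350.4 and 3096 CPM, lay within the range of the other PBS libraries, and without them Nppa stood at -1.48 (edgeR adjusted p = 0.0363) and was again the 1 gene of 6 called, while 12.8% of all tested genes were called lower and 14.2% higher.

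Nppb (chromosome 4, 147985788 to 147987205, plus strand) ends 13516 bases before Nppa begins. It had 501, 702, 340.1, 294 and 902 CPM in 4FM3 libraries 1 to 5, against 778, 638, 536, 572 and 539.5 CPM in PBS libraries 1 to 5. The 4FM3 values reached both below and above the whole PBS range, with libraries 3 and 4 lowest and library 5 highest of all 10. The mean was 548 ± 255 CPM in 4FM3 and 612 ± 101 CPM in PBS (SD, n = 5 each). The log2 fold change was -0.16 (SE 0.286, 95% interval -0.80 to 0.47, edgeR adjusted p = 0.677), so the interval reached from 0.576 to 1.39 times the PBS level. The spread within 4FM3 was shared by both genes in part: library 4 was lowest and library 5 highest for each, and library 2 was second highest for each.

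The ratio of Nppa to Nppb reads within a library separated the groups. There were 1.47, 2.05, 2.46, 2.12 and 2.78 Nppa reads for each Nppb read in 4FM3 libraries 1 to 5, against 5.12, 5.25, 5.78, 5.32 and 6.27 in PBS libraries 1 to 5. No 4FM3 library came near the PBS range, and library 1 had the lowest ratio in each group. On the log2 scale of CPM with a prior count of 2 the ratio averaged 1.09 ± 0.345 in 4FM3 and 2.47 ± 0.12 in PBS (SD, n = 5 each). The difference of -1.38 was a 2.60-fold lower ratio in 4FM3, lower in 5 of 5 libraries (two-sided exact permutation p = 0.00794, the smallest this design allows; Benjamini-Hochberg adjusted p = 0.0238 over 3 ratios). With PBS libraries 2 and 3 left out the difference was still -1.38, with an adjusted p of 0.107 in a comparison whose smallest unadjusted p is 0.0357.

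**Figure D2:**
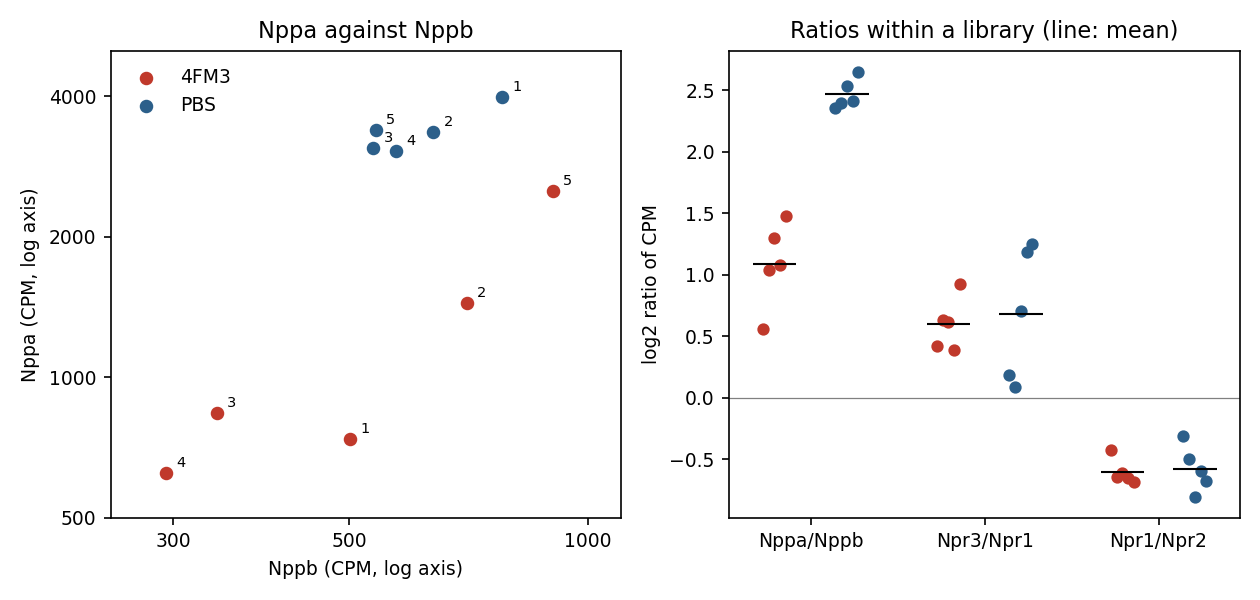
Left, Nppa against Nppb in CPM on log axes, points labelled with the replicate number; right, log2 ratios of CPM within each library for 3 pairs of genes, 4FM3 (red) left of PBS (blue), with lines at the group means. The Nppa to Nppb ratios of 4FM3 (0.56 to 1.47 on the log2 scale) lie below those of PBS (2.35 to 2.65), and the ratios of receptor genes overlap.

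Per kilobase of annotated exon, which allows levels of different genes to be compared, Nppa ranked 8 to 29 among 12588 tested genes with a length in 4FM3 libraries and 4 to 6 in PBS libraries. Nppb ranked 20 to 73 in 4FM3, with a median of 38, and 20 to 26 in PBS, with a median of 23. Nppa alone took 0.0569% to 0.239% of all reads of a library in 4FM3 and 0.312% to 0.410% in PBS. The order of the group means in CPM per kilobase was the same in both groups: Nppa, Nppb, Corin, Npr2, Npr1 and Npr3. Mean values were 1421 for Nppa, 701 for Nppb, 37.7 for Corin, 12.1 for Npr2, 7.72 for Npr1 and 6.03 for Npr3 in 4FM3. In PBS they were 3896 for Nppa, 784 for Nppb, 33.6 for Corin, 12.9 for Npr2, 8.47 for Npr1 and 7.24 for Npr3. Npr1 and Npr3 overlapped between libraries in both groups, and Nppa and Nppb overlapped in 4FM3, although Nppa was above Nppb within every library.

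The sequences directly upstream of the peptide genes are shown because these neighbours, which are close paralogs, differed in their response. Each is the 250 bases before the transcription start that RefSeq gives on GRCm38.p6 (for Nppb it differs from the GENCODE start used above), plus strand, chr4:148000472-148000721 for Nppa and chr4:147985650-147985899 for Nppb. Capitals mark matches, on either strand, to GATAA (GATA factors), AAGTG (the core of NK homeobox sites), GGTGTGA (T-box factors), CATTCC (the M-CAT element of TEAD factors) and TATAAA (the TATA box). The CArG box of serum response factor was searched by its strict pattern, CCWWWWWWGG, where W is A or T. It had no exact match in either window, and sites with a mismatch were not searched.
Nppa: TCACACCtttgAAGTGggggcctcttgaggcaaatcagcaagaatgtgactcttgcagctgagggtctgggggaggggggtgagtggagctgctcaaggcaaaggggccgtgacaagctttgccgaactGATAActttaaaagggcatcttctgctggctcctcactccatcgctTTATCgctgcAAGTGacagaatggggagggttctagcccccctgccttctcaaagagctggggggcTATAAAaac
Nppb: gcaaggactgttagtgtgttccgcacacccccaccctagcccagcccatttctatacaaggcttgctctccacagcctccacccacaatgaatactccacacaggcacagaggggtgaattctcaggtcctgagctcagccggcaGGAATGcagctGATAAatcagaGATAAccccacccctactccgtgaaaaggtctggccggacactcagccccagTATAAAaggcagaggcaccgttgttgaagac
Both windows hold 2 GATAA matches and 1 TATAAA match. Nppa also holds 2 AAGTG matches and 1 GGTGTGA match, at the far end of the window, and Nppb holds 1 CATTCC match. Of 32851 mouse promoter windows of this length, 22.6% hold GATAA, 40.7% AAGTG, 3.33% GGTGTGA, 12.6% CATTCC, 12.4% TATAAA and 1.47% a CArG box. A match is a description of letters and not evidence of binding.

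Among 16 tested genes for transcription factors reported to act on these promoters, 6 rose and 2 fell, but with library size alone as scaling 2 rose and 5 fell. Of all tested genes 20.9% rose and 22.1% fell, and 11.9% rose and 38.5% fell with library size alone. Their log2 fold changes had a median of 0.17, against -0.03 over all tested genes. Nkx2-5, a cardiac NK homeobox factor, had 45.7 ± 3.65 CPM in 4FM3 and 35.1 ± 1.79 CPM in PBS (SD, n = 5 each; log2 fold change 0.38, edgeR adjusted p = 0.00138). Hand2, a basic helix-loop-helix factor, rose 1.56-fold (adjusted p = 0.00494), and Tbx3, a T-box repressor known to keep Nppa silent in the conduction system, rose 1.37-fold (adjusted p = 0.00553). Nr2f2, which specifies atrial identity and is also made by veins and fibroblasts, fell, with 23.3 ± 1.67 CPM in 4FM3 and 41.5 ± 6.39 CPM in PBS (1.78-fold lower, adjusted p = 0.000271). With library size alone Tbx3 did not pass (0.27, adjusted p = 0.0539).

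The neighbours listed around the peptide genes on chromosome 4 were protein-coding genes, and leave out the antisense gene described below. The 9 tested lay between -0.33 and 0.31 on the log2 scale, with a median of 0.09. Of these, 2 were called higher and 1 lower, against 43.0% of all tested genes called. With library size alone 0 were higher and 2 lower, against 50.4% of all tested genes called. Over 9 genes these counts are no result about the list. Mfn2, which fuses mitochondria, rose 1.24-fold to 1041 ± 73.5 CPM in 4FM3, against 839 ± 80.6 CPM in PBS (SD, n = 5 each; edgeR adjusted p = 0.0117). Clcn6, a chloride transporter gene that follows Nppa on the other strand, was 1.25-fold lower (28.2 ± 4.14 CPM in 4FM3 and 35.4 ± 3.48 CPM in PBS, adjusted p = 0.0247). Plod1, a collagen lysyl hydroxylase, stood at 0.17 (adjusted p = 0.0488) and Agtrap, which binds the angiotensin receptor, at 0.25 (adjusted p = 0.0566). Without PBS libraries 2 and 3 the called neighbours did not pass, at 0.27 for Mfn2 (edgeR adjusted p = 0.0779), -0.34 for Clcn6 (0.0596) and 0.15 for Plod1 (0.2). With library size alone Mfn2 stood at 0.14 and did not pass, Plod1 turned to -0.01, and Clcn6 stood at -0.50. Over all 17 alternatives, 10 of which leave out a single library, Clcn6 missed the threshold in 6 and Plod1 in 12. Agtrap passed in 6 of them, at 0.26 to 0.31: with DESeq2 size factors, the DESeq2 Wald test, the replicate block, and without PBS library 1, PBS library 4 or 4FM3 library 5 (adjusted p 0.0236 to 0.04996).

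**Figure D3:**
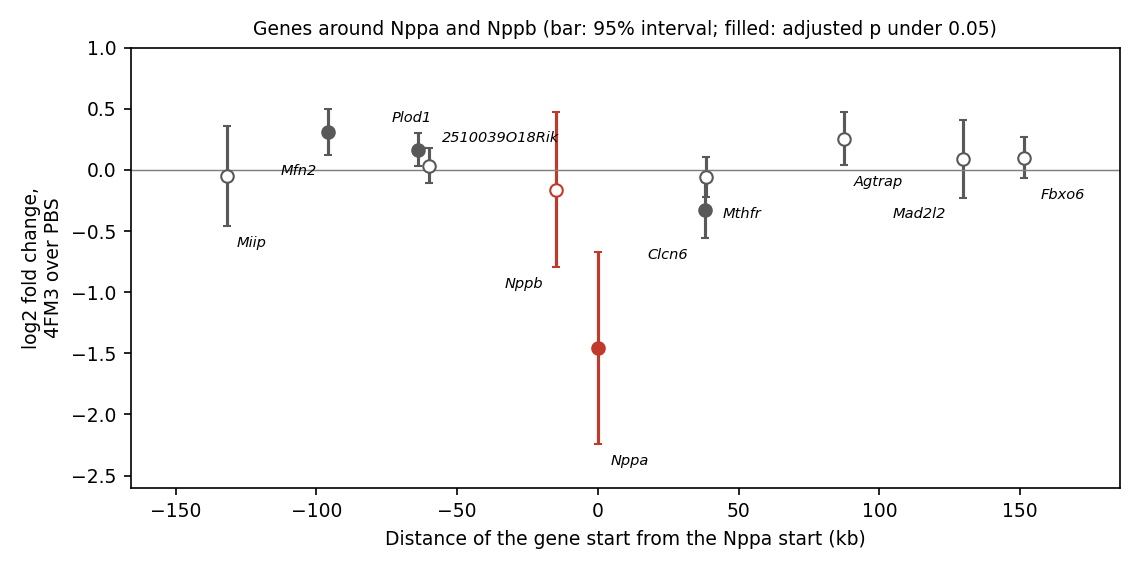
Log2 fold change (4FM3 over PBS, with 95% interval) of Nppa, Nppb (red) and 9 tested protein-coding neighbours (grey) by distance of each gene's start from the Nppa start in kilobases; filled points passed an adjusted p under 0.05. Nppa stands at -1.46, and the neighbours lie between -0.33 for Clcn6 and 0.31 for Mfn2.

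An annotated antisense gene on the other strand shares 532 exonic bases with Nppa. It had 9, 8, 8, 3 and 18 reads in 4FM3 libraries 1 to 5, against 38, 37, 40, 36 and 57 in PBS libraries 1 to 5. It was lower in 4FM3 (log2 fold change -1.93, SE 0.317, edgeR adjusted p = 0.000658) and was chosen after its values were seen. Its reads amounted to 0.0743% to 0.187% of those of Nppa in 4FM3 and 0.124% to 0.217% in PBS. The libraries preserve strand, but the sources used here do not give whether the counting used it, and without strand the reads of both genes cannot be told apart.

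Corin (chromosome 5, 72300025 to 72504473, minus strand), a membrane protease of cardiomyocytes that cleaves pro-ANP to ANP, varied widely in both groups. It had 164, 84.6, 354, 179 and 237 CPM in 4FM3 libraries 1 to 5, against 217, 208, 88.3, 239 and 157 CPM in PBS libraries 1 to 5. Library 2 of 4FM3 and library 3 of PBS were low by a similar amount, and library 3 of 4FM3 was the highest of the 10. The mean was 204 ± 99.9 CPM in 4FM3 and 182 ± 60.2 CPM in PBS (SD, n = 5 each; log2 fold change 0.16, SE 0.377, 95% interval -0.68 to 1.01, edgeR adjusted p = 0.754). The sign turned with library size alone (-0.01) and without 4FM3 library 3 (-0.13), so no direction can be given for Corin.

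Among other genes that make, trim or degrade the peptides, 2 were called higher and 2 lower of 8 tested, and with library size alone none higher and 4 lower. These counts lie near the shares of all tested genes, 43.0% called in either direction and 38.5% called lower with library size alone, and are no result about the list. The median log2 fold change was 0.02. Furin, a convertase that cleaves pro-BNP, had 181 ± 11.4 CPM in 4FM3 and 154 ± 6.52 CPM in PBS (SD, n = 5 each; log2 fold change 0.24, edgeR adjusted p = 0.0084). With library size alone as scaling Furin did not pass (0.06). Mme, which encodes neprilysin, the peptidase that degrades natriuretic peptides, had 40.03, 23.9, 41.8, 38.6 and 23.99 CPM in 4FM3 libraries 1 to 5, against 16.7, 23.5, 27.98, 14.9 and 11.2 CPM in PBS libraries 1 to 5. The groups overlapped, since 4FM3 libraries 2 and 5 lay within the PBS range. The upper end of that range came from PBS library 3, which carried lung transcripts. The other PBS libraries lay below every 4FM3 library. PBS library 2, which also carried lung transcripts, lay closest, at 23.5 CPM against 23.9 CPM in 4FM3 library 2. Mme was 1.78-fold higher in 4FM3 (log2 fold change 0.83, SE 0.258, adjusted p = 0.0243). It missed the threshold without PBS library 1 (0.79, adjusted p = 0.0503) and without 4FM3 library 1, 3 or 4 (0.74 to 0.78, adjusted p up to 0.0598). It also missed with no filter on low counts (adjusted p = 0.0588) and with library size alone (adjusted p = 0.054). Mme passed in 11 of 17 alternatives, at up to 1.24, the one without PBS libraries 2 and 3 among them.

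Pcsk5, another proprotein convertase, fell in every 4FM3 library, with 11.5, 16.3, 12.2, 13.1 and 16.2 CPM in 4FM3 libraries 1 to 5, against 21.7, 24.1, 25.8, 26.5 and 23.4 CPM in PBS libraries 1 to 5. The groups did not overlap, and the log2 fold change was -0.81 (SE 0.112, edgeR adjusted p = 0.000306). Dpp4, a peptidase that can trim BNP, was 1.73-fold lower at 6.85 ± 1.77 CPM in 4FM3 and 11.9 ± 3.24 CPM in PBS (SD, n = 5 each; adjusted p = 0.0107), and without PBS libraries 2 and 3 it did not pass (-0.70, adjusted p = 0.0664). Pcsk6, the convertase that activates corin, stood at 0.12 (adjusted p = 0.275), Ide, the insulin-degrading enzyme, at 0.17 (adjusted p = 0.0566), Pcsk7 at -0.11 and Ece1 at -0.07. Nppc, the gene of C-type natriuretic peptide, had 0 to 2 reads in every library of both groups, and Ostn, whose product competes for Npr3, had 0 or 1, both too few to test. The protease genes Prss8 and Tmprss2 were also too low to test.

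The receptor genes showed small differences that did not pass. Npr1 (chromosome 3, 90450591 to 90465866, minus strand), the receptor for ANP and BNP, had 37.0, 36.5, 35.9, 37.3 and 38.0 CPM in 4FM3 libraries 1 to 5, against 47.8, 41.6, 32.7, 43.4 and 37.1 CPM in PBS libraries 1 to 5. The 4FM3 libraries lay close together, inside the wider PBS range, with coefficients of variation of 2.20% in 4FM3 and 14.4% in PBS. The log2 fold change was -0.13 (SE 0.0927, 95% interval -0.33 to 0.07, edgeR adjusted p = 0.26).

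Npr2 (chromosome 4, 43631935 to 43651244, plus strand), the receptor for C-type natriuretic peptide, had 49.5, 57.1, 55.0, 58.6 and 61.3 CPM in 4FM3 libraries 1 to 5, against 59.4, 58.9, 57.2, 65.7 and 59.4 CPM in PBS libraries 1 to 5. The groups overlapped, and the log2 fold change was -0.09 (SE 0.0684, 95% interval -0.24 to 0.05, edgeR adjusted p = 0.282). The intervals of Npr1 and Npr2 were the narrowest of the 6 genes, reaching down to 0.793 and 0.845 times the PBS level. With library size alone as scaling, Npr1 at -0.31 and Npr2 at -0.27 passed as lower, when 50.4% of all tested genes were called, 38.5% lower and 11.9% higher.

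Npr3 (chromosome 15, 11839896 to 11907287, minus strand), the clearance receptor, which carries no cyclase domain, had 49.5, 56.5, 55.3, 49.0 and 72.6 CPM in 4FM3 libraries 1 to 5, against 54.4, 44.3, 53.6, 99.1 and 88.5 CPM in PBS libraries 1 to 5. PBS libraries 4 and 5 were the highest of the 10, and the other PBS libraries lay near the 4FM3 values. The log2 fold change was -0.26 (SE 0.224, 95% interval -0.76 to 0.23, edgeR adjusted p = 0.366). The 2 PBS libraries that carried lung transcripts had 44.3 and 53.6 CPM, and without them Npr3 stood at -0.50 (adjusted p = 0.0829).

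Neither ratio of receptor genes differed beyond the spread between libraries. The log2 ratio of Npr3 to Npr1, clearance to signalling receptor, averaged 0.60 ± 0.215 in 4FM3 and 0.68 ± 0.541 in PBS (SD, n = 5 each; difference -0.09, two-sided exact permutation p = 0.714, adjusted p = 0.817). That of Npr1 to Npr2 averaged -0.60 ± 0.105 in 4FM3 and -0.58 ± 0.185 in PBS (difference -0.03, exact permutation p = 0.817, adjusted p = 0.817).

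Downstream of the receptors, genes that make, sense or degrade cyclic GMP were called in both directions. Of 16 tested, 3 rose and 7 fell, against none and 7 with library size alone, and their median was -0.06 on the log2 scale. Over all tested genes 20.9% rose and 22.1% fell, and with library size alone 38.5% fell, close to the share of this list. The called genes included both common subunits of soluble guanylyl cyclase, the nitric oxide receptor that makes cyclic GMP by a route separate from natriuretic peptides. Its alpha subunit Gucy1a1, listed under the older symbol Gucy1a3, had 55.2, 88.5, 56.2, 64.8 and 64.5 CPM in 4FM3 libraries 1 to 5, against 108, 129, 127, 123 and 149 CPM in PBS libraries 1 to 5. The groups did not overlap, and it was 1.93-fold lower in 4FM3 (log2 fold change -0.95, SE 0.126, edgeR adjusted p = 0.000294). The beta subunit Gucy1b1, listed as Gucy1b3, had 35.5 ± 2.41 CPM in 4FM3 and 51.9 ± 5.63 CPM in PBS (SD, n = 5 each; 1.46-fold lower, adjusted p = 0.000439).

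Phosphodiesterase genes, which break cyclic nucleotides down, split. Pde1a, regulated by calcium and calmodulin, was 2.04-fold lower, with 16.6 ± 3.04 CPM in 4FM3 and 33.9 ± 5.52 CPM in PBS (SD, n = 5 each; edgeR adjusted p = 0.000298). Pde5a, which degrades cyclic GMP and is the target of sildenafil, was 1.43-fold lower, with 19.2 ± 3.27 CPM in 4FM3 and 27.4 ± 5.17 CPM in PBS (adjusted p = 0.0135). The genes called higher were Pde1c (log2 fold change 0.40, adjusted p = 0.0279), Pde3a (0.25, adjusted p = 0.0257) and Nos3, the endothelial nitric oxide synthase (0.33, adjusted p = 0.0151). Prkg1, the cyclic GMP-dependent kinase, stood at -0.08 (95% interval -0.30 to 0.14, adjusted p = 0.539). Without PBS libraries 2 and 3 the count was 3 lower and none higher of 16, when 12.8% of all tested genes were lower and 14.2% higher, and Pde5a did not pass (-0.38, adjusted p = 0.116). Without 4FM3 library 3 it was 5 lower and 1 higher. Over all genes, the fits leaving out a single library called 4573 to 5831, against 5546 with all libraries.

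**Figure D4:**
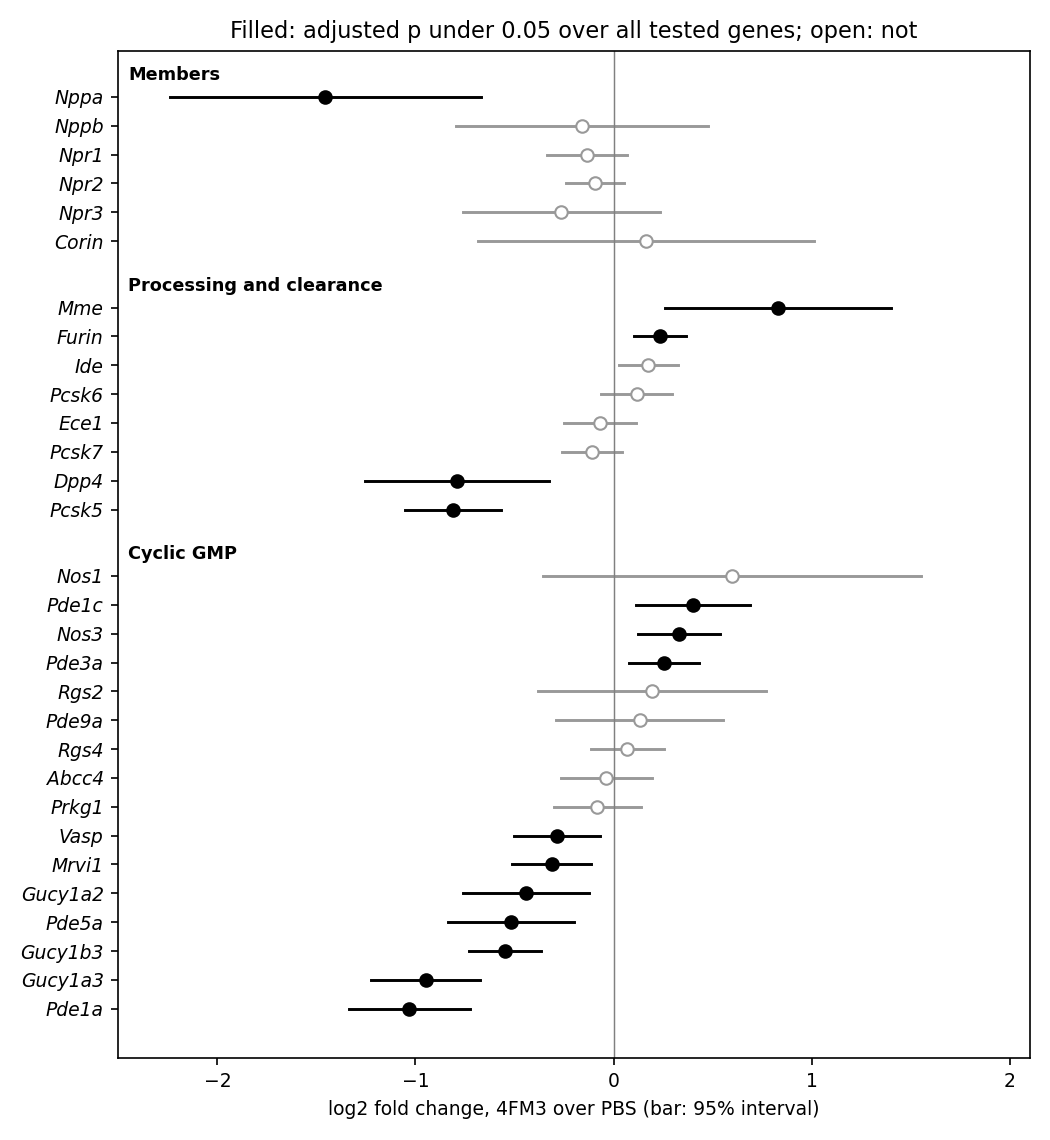
Log2 fold change (4FM3 over PBS) with 95% interval for the 6 members, 8 tested genes of peptide processing and clearance, and 16 tested genes of cyclic GMP synthesis, sensing and breakdown. Filled points passed an adjusted p under 0.05 over all tested genes; Nppa at -1.46 is the lowest point and Mme at 0.83 the highest filled one.

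Markers of some other cell types moved with the groups, and their part in the results above was not tested. The counts of called markers stand against 20.9% of all tested genes called higher and 22.1% called lower. The summed level of 12 cardiomyocyte genes was 119475 to 145715 CPM in 4FM3 and 78026 to 105569 CPM in PBS, with 11 of 12 called higher, while Nppa was lower. With library size alone 8 of 12 were called higher and none lower, when 11.9% of all tested genes were called higher. Most of the sum was Ttn (mean 56015 CPM in 4FM3 and 43971 CPM in PBS) and Myh6 (28958 and 16685 CPM). The summed level of 8 fibroblast genes, all 8 lower, was 3924 to 6814 CPM in 4FM3 and 9804 to 12181 CPM in PBS. Within 4FM3 it was highest in libraries 2 and 5 (6475 and 6814 CPM against 3924 to 4546 CPM), the libraries with the most Nppa and Nppb. This order did not hold in PBS. There library 1 had the most Nppa and Nppb with a fibroblast sum of 10413 CPM, and library 2 had the highest sum, 12181 CPM. Of 8 macrophage genes 7 fell, with sums of 707 to 832 CPM in 4FM3 and 788 to 1711 CPM in PBS, but 3 fell without PBS libraries 2 and 3 and 3 without 4FM3 library 3. Without PBS libraries 2 and 3, 12.8% of all tested genes were called lower. The fits leaving out a single library called 4573 to 5831 genes in either direction, against 5546 with all libraries. Of 10 endothelial and endocardial genes 3 rose and 2 fell (1272 to 1376 CPM in 4FM3 and 1142 to 1343 CPM in PBS), and 1 rose and 1 fell without PBS libraries 2 and 3, shares near those of all genes. Of 8 smooth muscle and pericyte genes 3 rose and 5 fell (1521 to 1721 CPM in 4FM3 and 1194 to 1486 CPM in PBS). Most of this sum was Rgs5 (mean 659 CPM in 4FM3 and 486 CPM in PBS) and Abcc9 (645 and 381 CPM). These and Kcnj8 rose, while Acta2, Myh11, Tagln, Cnn1 and Pdgfrb fell.

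Atria, the main site of Nppa in the adult, had been removed per the labels' protocols. The atrial marker Bmp10 had 0 or 1 read in every library, and Myl7 had 29, 103, 84, 68 and 26 reads in 4FM3 libraries 1 to 5, against 46, 1, 1, 0 and 209 in PBS libraries 1 to 5. PBS libraries 2, 3 and 4, with 0 or 1 read of Myl7, had 3043 to 3350.4 CPM of Nppa, and the part of atrial tissue in the Nppa difference was not tested. Over the 9 atrial genes tested, 1 rose and 3 fell, a share near the 43.0% of all tested genes called. The summed level of the listed atrial genes was 1437 to 2022 CPM in 4FM3 and 1842 to 2426 CPM in PBS. Most of this sum was Pam (mean 1506 CPM in 4FM3 and 1908 CPM in PBS), so it says little about the other atrial genes. Myl7, Myl4 and Sln stood at 0.50, 0.21 and 0.03 on the log2 scale and did not pass. The gene called higher was Kcnj3 (1.56, edgeR adjusted p = 0.003). Those called lower were Dkk3 (-1.54, adjusted p = 0.000915), Nr2f2 (-0.83, adjusted p = 0.000271) and Pam (-0.34, adjusted p = 0.0377). Of 5 blood genes 0 passed by edgeR, and 0 had an unadjusted p under 0.05, with sums of 291 to 686 CPM in 4FM3 and 254 to 554 CPM in PBS.

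The genes whose library-to-library pattern was most like that of each peptide gene were found by correlating deviations from the group means over the 10 libraries, among 9203 genes with a mean of at least 10 CPM. For Nppa they included Ecm1 (r = 0.965), Nbl1 (0.959), Mfap5 (0.959) and Pi16 (0.952). Mfap5 and Ecm1 encode matrix proteins and Nbl1 a secreted BMP antagonist. Of these 4 genes, all but Nbl1 were also called lower in 4FM3, at -0.59 to -0.96 on the log2 scale. For Nppb they were Tnfrsf12a (0.958), the receptor of the cytokine TWEAK, and Gprc5b (0.946), Tlr4 (0.943), Crip1 (0.940) and Uck2 (0.939), of which Gprc5b and Crip1 were called lower and the others not. The correlations are descriptions over libraries of shared depth and lean on 4FM3 library 5. Without it the genes named for Nppa ranked 14 to 32 of all genes compared, and those named for Nppb ranked 2 to 15. By rank correlation the ranks were 1 to 274 for Nppa and 1 to 46 for Nppb. A predicted gene ranked 1 for Nppb is not named.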

How the data were processed

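The authors deposited 3 values per gene and library: whole-number read counts, a normalized expression signal equal to the count times 1 factor per library (0.9311 to 1.114), and transformed values equal to log2 of that signal plus 1, per the file headers and the values. The genome build was mm10 per the submitters' processing notes, while the aligner, annotation and counting tool were not given in the sources. The counts entered the tests. Total counts were 6634159 to 7711177 per library, and no pair of libraries in a group was alike within sampling noise (chi-square per degree of freedom at least 4.54). A date replaced the symbol in 26 rows (0.131% to 0.161% of counts).

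Counts were filtered with filterByExpr, scaled by TMM and tested with the edgeR 4.0.16 quasi-likelihood test in R 4.3.3 (robust dispersions, no covariate, two-sided, Benjamini-Hochberg over 12906 genes). On simulated counts, in which fewer genes changed than were called in the data, the procedure recovered 51.0% of 1.5-fold and 83.8% of 2-fold changes. Of its calls there, 5.67% fell on unchanged genes. Intervals are 95% intervals of the fitted log2 fold change. Ratios were compared by exact permutation in scipy 1.17.1. Alternatives used DESeq2 1.42.0 and limma 3.58.1. Positions and exon lengths are those of GENCODE M21 (mm10), with a length for 97.5% of tested genes, and promoters those of RefSeq.

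The members and lists were chosen with earlier results of these data known. Named genes were the 6 members, up to 4 of each further list by smallest p, every ligand or processing gene and the 5 genes most like Nppa and Nppb. Of the listed pathway genes 1 is not analysed here, 1 gene chosen by likeness is not reported here, and Nos3, Pde1c, Pde3a, Prkg1 and single markers were named after their values were seen.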

Additional observations from a re-analysis of the deposited data

Results flagged for a closer look

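Of 18 sets of 5 libraries (6 genes and 3 ratios in each group) examined for a library standing apart from the other 4 by Dixon's criterion, 2 held such a library, and chance marks about 1 in 20 sets. PBS library 4 had 65.7 CPM of Npr2, against 57.2 to 59.4 CPM in the other 4 PBS libraries. 4FM3 library 1 had a log2 ratio of Npr1 to Npr2 of -0.42, against -0.69 to -0.61 in the other 4 libraries of 4FM3. Neither the high Nppa value of 4FM3 library 5 nor the high Corin value of 4FM3 library 3 met the criterion.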

How the results depend on the processing

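Nppa kept its direction and its call under all 17 alternatives (log2 fold change -1.89 to -1.29, adjusted p 0.00017 to 0.0363), and Nppb and Npr3 stayed below the threshold in all 17 (-0.41 to -0.00049 and -0.50 to -0.08). With library size alone, 3 of the 6 genes passed as lower, Npr1 (-0.31) and Npr2 (-0.27) among them, when 38.5% of all tested genes were called lower. In that fit Corin stood at -0.0103, Ide at -0.00058, Pcsk6 at -0.059 and Plod1 at -0.0092, all against the direction reported. Leaving out 1 library at a time gave -0.13 to 0.36 for Corin, -0.235 to 0.055 for the log2 ratio of Npr3 to Npr1 (0.04 without PBS library 4) and -0.0818 to 0.0409 for that of Npr1 to Npr2, and the cause was not tested. Calls over all genes ranged from 4573 to 5831 in these fits, against 5546, and numbered 3521 without PBS libraries 2 and 3, where fewer libraries entered and the Nppa to Nppb ratio (-1.38) had an adjusted p of 0.107. The shared replicate numbers did not pair the libraries: correlations of same-numbered deviations ran from -0.0448 to 0.0595, and 1 of 10 libraries correlated best with its own number. With the number as a replicate block, 5592 genes passed, Nppa stood at -1.66 (adjusted p = 0.0157), and the Nppa to Nppb ratio (-1.38) had an adjusted p of 0.188, with 0.0625 the smallest p that 32 sign changes allow.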

Other observations

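Natriuretic peptides and corin are made by cardiomyocytes, whose marker genes were higher in 4FM3, so the levels of Nppa, Nppb and Corin were also set against the mean log2 CPM of the 12 cardiomyocyte markers, a measure added after the values were seen. On this scale Nppa stood at -2.35 ± 0.927 in 4FM3 and 0.00221 ± 0.225 in PBS (SD, n = 5 each), a difference of -2.35 (two-sided exact permutation p = 0.00794, adjusted p = 0.0238 over 3 genes; adjusted p = 0.107 without PBS libraries 2 and 3, and 0.0938 with the replicate block). Nppb stood at -3.44 ± 0.79 in 4FM3 and -2.47 ± 0.22 in PBS, a difference of -0.97 (exact permutation p = 0.0317, adjusted p = 0.0476), which did not pass in 9 of 13 alternatives (-0.76 to -1.21, adjusted p up to 0.107). Corin stood at -4.89 ± 0.69 in 4FM3 and -4.28 ± 0.546 in PBS, a difference of -0.60 (exact permutation p = 0.151, adjusted p = 0.151), and it passed without PBS library 3 (-0.84, adjusted p = 0.0476). A gene measured against markers that themselves changed gives a relative value, and a change per cell cannot be told apart from a change in the share of cardiomyocytes.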
